A study of Mus musculus with 6 samples.

Results

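Intermediate filament and nuclear lamin genes were compared in stem cells taken quiescent or activated from the ventricular-subventricular zone of adult mice, the germinal layer along the lateral ventricles. The genes were Gfap, Vim, Nes, Synm, Nefl, Nefm, Ina, Lmna, Lmnb1 and Lmnb2, and each was represented by all its probe sets annotated to exactly 1 gene, that gene being one of these 10. Together they had 26 of the 34945 probe sets annotated to 1 gene, or 10 of 18193 genes. Quiescent cells were sorted as GFAP::GFP+CD133+CD24- and activated cells as GFAP::GFP+CD133+EGFR+CD24-. Both were thus selected for a GFP reporter driven by a GFAP promoter, for CD133 and against CD24, and the sort differed by the EGF receptor. There were 3 arrays for each population that the labels call biological replicates, and the sources used here do not give strain, age beyond adult or how many animals were pooled. P-values therefore measure the spread between these arrays. Because both sorts required the GFAP reporter, a difference in Gfap is one among cells selected as reporter-positive.

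The genes of the sort were checked first, by RNA alone, and 1 of them did not read low although the sort selected against its product. Cd24a, which encodes CD24, read 7.99, 9.31 and 10.48 on quiescent and 13.36, 13.52 and 13.29 on activated arrays, above background on all 6 although both sorts selected against CD24. It was 4.13 ± 0.50 higher in activated cells (limma, adjusted p = 0.000243). Egfr, the receptor used to select activated cells, was 2.11 ± 0.24 higher (adjusted p = 0.000171). The CD133 gene, Prom1, fell by 1.22 ± 0.32 (adjusted p = 0.0143).

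Intermediate filaments are rope-like polymers that resist mechanical stress. Vimentin and GFAP are type III proteins, and nestin, synemin, the neurofilament chains and internexin are type IV proteins that join mixed polymers. In the adult brain GFAP is typical of astrocytes and of the astrocyte-like stem cells, nestin of neural progenitors and neurofilaments of neurons. The lamins form the meshwork under the inner nuclear membrane. Lamins A and C are made from Lmna, and the B-type lamins come from Lmnb1 and Lmnb2. The meshwork is taken apart in mitosis when CDK1 phosphorylates the lamins.

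In activated cells the glial filament genes moved in opposite directions, and the B-type lamin genes rose. Gfap and Synm fell, by 4.18 and 2.27 on the log2 scale for the brightest probe set of each (SE 0.58 and 0.41, n = 3 arrays per group), and Nes rose by 2.48 (SE 0.73). Vim rose by 0.82 (SE 0.26), a 1.77-fold difference. These Nes and Vim probe sets did not pass the test in 4 of 19 and 5 of 18 alternative runs of it. Those of Gfap and Synm passed in all 19. Among lamins, Lmnb1 rose by 3.40 (SE 0.42) and Lmnb2 by 2.47 (SE 0.41), while none of the 4 tested Lmna probe sets passed the test. Nefl, Nefm and Ina were too dim to be tested.

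All values are log2 MAS5 signals, MAS5 being the Affymetrix summary of the probes of a probe set, and differences are activated minus quiescent. The test was limma with Benjamini-Hochberg adjustment over 22607 probe sets whose mean over the 6 arrays reached 6.02, and a probe set was called at an adjusted p under 0.05. Of the 26 member probe sets, 17 from 7 genes reached that signal and 9 did not. Of the 17, 6 were called higher and 4 lower, and 7 did not pass. The called Gfap 1440142_s_at and 1426509_s_at had activated means of 5.09 and 5.23, so they reached 6.02 through the quiescent arrays. So did Lmna 1425472_a_at (5.92) and 1452212_at (5.83), which did not pass. Nes 1449022_at and Lmna 1421654_a_at, with quiescent means of 5.70 and 6.01, reached it through the activated arrays. For such probe sets the filter favoured a difference. Among all tested probe sets 15.6% were called higher and 16.3% lower, 31.9% in all, so calls were common on these arrays. The groups did not overlap for 14 of the 17 member probe sets, against 48.1% of all tested probe sets. Values of different probe sets are not compared as levels, because each has its own probes.

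**Figure D1:**
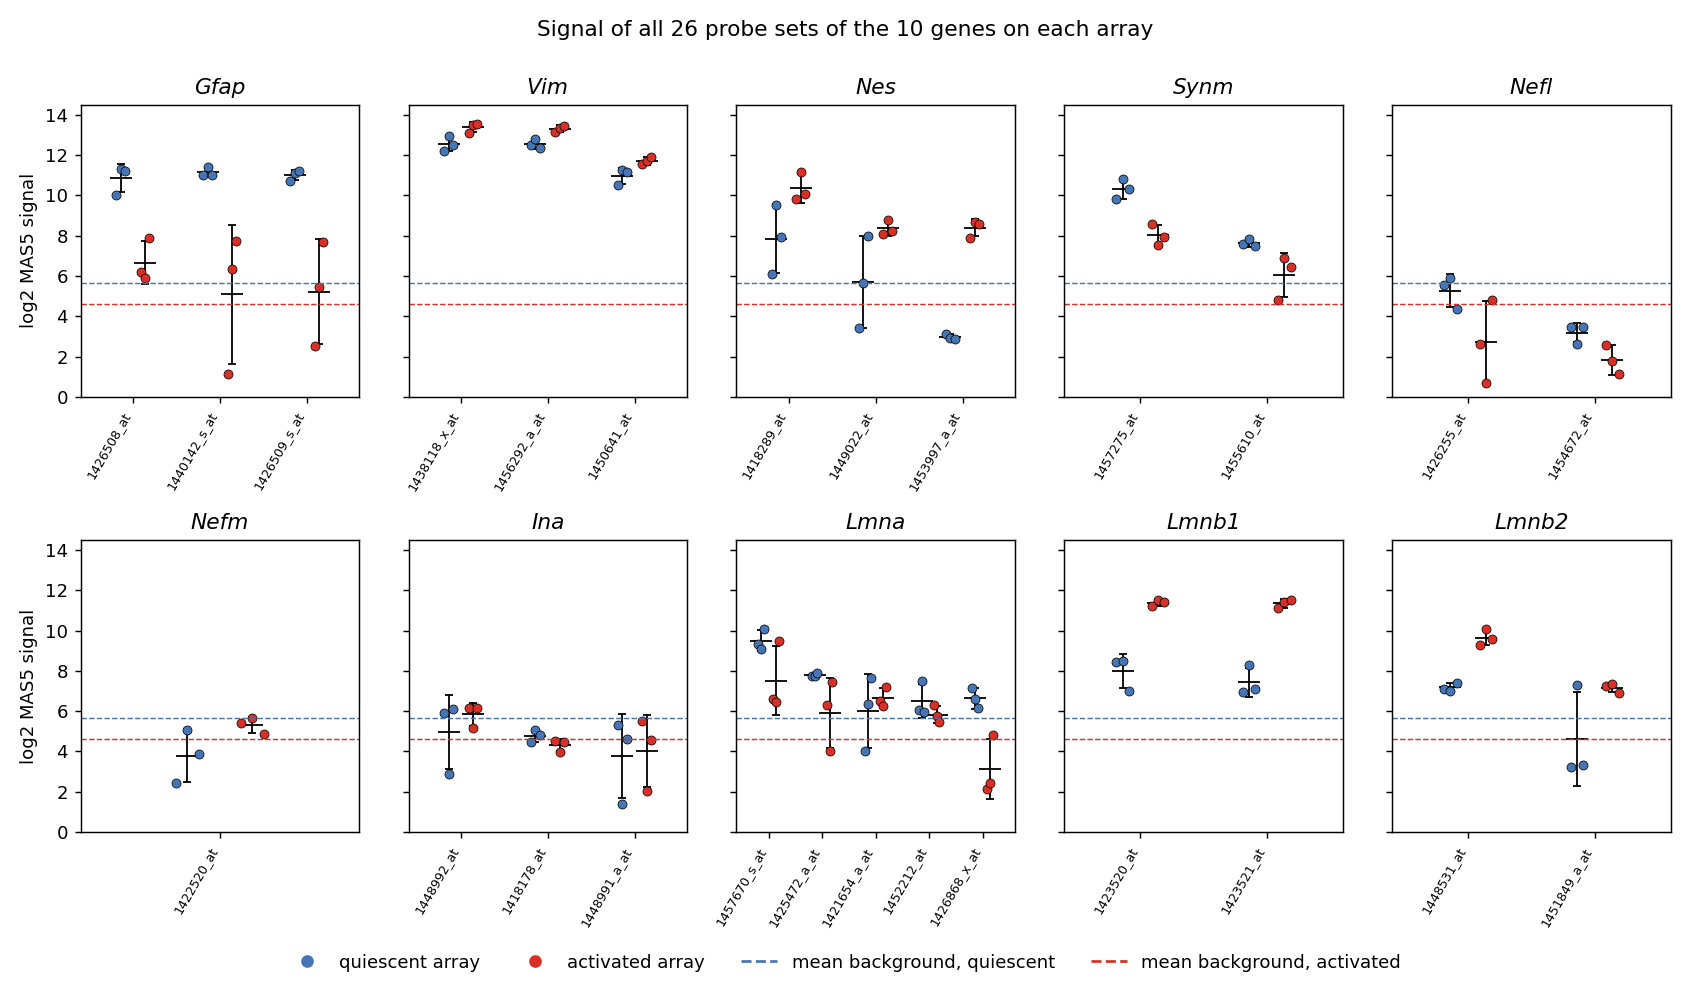
Log2 MAS5 signal (vertical axis) of each probe set (horizontal axis) of the 10 genes, 1 panel per gene, with 3 quiescent arrays in blue, 3 activated arrays in red, horizontal bars for means and error bars for the SD. Dashed lines mark the mean background of each group, 5.67 for quiescent and 4.60 for activated arrays, and the probe sets of Nefl, Nefm and Ina lie near or under them.

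Several measures of the arrays differed between the groups. Background, taken as the 95th percentile of 27 bacterial control probe sets, was 5.67 ± 0.37 (SD, n = 3) on quiescent and 4.60 ± 0.07 on activated arrays. The hybridisation controls averaged 14.3 ± 0.53 and 13.7 ± 0.05, and the signal of the 3′ minus the 5′ Gapdh control was 2.05 ± 0.52 and 1.37 ± 0.17. A two-sided exact permutation test gave 0.1 for each of these 3 measures, and no lower p is possible with 3 arrays a group. Quiescent array 1 stood highest in all of them, at 6.10, 14.9 and 2.59. The 3′ minus the 5′ signal of the actin control was -0.05 ± 0.16 on quiescent and 0.07 ± 0.16 on activated arrays. The same permutation test gave 0.4 for it, so the actin control did not show the difference seen for Gapdh. When arrays were set to equal hybridisation controls (below, control scaling), this moved the median difference of all tested probe sets from -0.02 to 0.62, and the share of calls that were higher from 48.85% to 76.66%. That scaling adds the same constant to every difference. The smallest called fall of a member, Synm 1457275_at, went from -2.27 to -1.63, so no called member probe set could change direction. Their kept directions are therefore no check on the scaling. In such bulk samples fewer cells of a type and less RNA per cell cannot be told apart.

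The 4 glial and progenitor filament genes are shown with the sequence before their transcription start, since they split into a pair that fell and a pair that rose. RefSeq promoter windows of build GRCm38.p6 matched 7 of the 10 genes, and 250 bases before the start are printed 5′ to 3′ on the gene's strand. Capitals mark matches on either strand to the CCAAT box, spelled CCAAT, to the TATA box, spelled TATAAA, and to the GC box, spelled GGGCGG. Matches did not overlap in these windows. The windows lie at chr11:102897201-102897450 on the minus strand for Gfap, chr7:67759743-67759992 on the minus strand for Synm, chr2:13574061-13574310 on the plus strand for Vim and chr3:87970843-87971092 on the plus strand for Nes.
Gfap: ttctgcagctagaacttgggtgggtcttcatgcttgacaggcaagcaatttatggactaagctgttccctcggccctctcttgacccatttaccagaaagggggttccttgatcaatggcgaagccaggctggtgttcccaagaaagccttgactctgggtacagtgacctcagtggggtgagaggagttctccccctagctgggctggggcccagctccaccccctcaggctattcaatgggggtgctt
Synm: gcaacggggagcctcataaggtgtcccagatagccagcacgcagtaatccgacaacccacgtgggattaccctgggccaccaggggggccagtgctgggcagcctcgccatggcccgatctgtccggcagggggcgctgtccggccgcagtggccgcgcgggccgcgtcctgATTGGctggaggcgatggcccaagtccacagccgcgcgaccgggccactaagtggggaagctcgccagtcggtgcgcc
Vim: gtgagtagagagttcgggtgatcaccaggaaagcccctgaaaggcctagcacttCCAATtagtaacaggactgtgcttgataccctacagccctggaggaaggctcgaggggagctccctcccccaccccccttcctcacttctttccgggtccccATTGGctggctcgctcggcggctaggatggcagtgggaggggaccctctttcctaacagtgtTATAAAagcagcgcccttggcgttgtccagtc
Nes: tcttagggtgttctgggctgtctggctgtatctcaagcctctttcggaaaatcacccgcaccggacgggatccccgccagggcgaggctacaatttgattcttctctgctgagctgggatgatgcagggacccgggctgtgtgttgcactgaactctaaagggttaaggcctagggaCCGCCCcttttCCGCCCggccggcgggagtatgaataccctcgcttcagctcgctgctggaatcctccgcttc

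These windows differed in composition. The ratio of observed to expected CpG dinucleotides was 0.104 before Gfap, 0.376 before Vim, 0.694 before Nes and 0.752 before Synm, with a median of 0.373 over 32851 windows of all genes. GC content was 55.6% for Gfap, 58.4% for Vim, 58.8% for Nes and 70.0% for Synm, against a median of 52.4%. The Vim window held the CCAAT box at 196 and 94 bases and the TATA box at 32 bases before the start, and the Nes window held the GC box at 73 and 62 bases. The CCAAT box was found at 78 bases before Synm, and none of the 3 motifs was found in the Gfap window. Of all windows, 33.8% held the CCAAT box, 12.4% the TATA box and 32.7% the GC box. In CpG ratio, Vim and Nes, which rose, lay between Gfap and Synm, which fell.

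GFAP is the main type III filament protein of astrocytes. The brightest Gfap probe set, 1426508_at, read 10.04, 11.32 and 11.20 on quiescent arrays 1, 2 and 3, and 6.21, 5.91 and 7.90 on activated arrays 1, 2 and 3. All activated arrays were below all quiescent ones and yet above background. The difference was -4.18 ± 0.58 (SE, adjusted p = 0.000477 in limma), an 18.2-fold lower signal.

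The further Gfap probe sets fell as well, with a wide spread among activated arrays. Probe set 1440142_s_at read 11.04, 11.42 and 11.005 on quiescent arrays and 1.16, 6.37 and 7.73 on activated arrays. For 1426509_s_at the readings were 10.72, 11.10 and 11.20 against 2.53, 5.45 and 7.69. Activated array 1 was under its background of 4.67 for both, and activated array 3 was the highest for all 3 Gfap probe sets. With that array held at background the mean signal was at least 29.8-fold lower for 1440142_s_at (adjusted p = 0.00542) and at least 33.6-fold lower for 1426509_s_at (adjusted p = 0.00176). The 3 Gfap calls held under every alternative in which these probe sets were tested.

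Synemin is a large type IV protein that joins vimentin and GFAP filaments and tethers them to other structures. Its probe set 1457275_at read 9.80, 10.80 and 10.31 on quiescent and 8.59, 7.56 and 7.94 on activated arrays, with no overlap. The difference was -2.27 ± 0.41 (adjusted p = 0.00228), a 4.84-fold lower signal. The second probe set, 1455610_at, read 7.61, 7.86 and 7.49 against 4.81, 6.90 and 6.46. It too did not overlap, but its difference of -1.60 (95% interval -3.05 to -0.14) did not pass (adjusted p = 0.0879).

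Vimentin, the type III protein shared by stem cells, ependymal cells, vascular cells and fibroblasts, was among the bright probe sets on all arrays. Vim 1438118_x_at read 12.23, 12.95 and 12.51 on quiescent and 13.12, 13.50 and 13.54 on activated arrays. The lowest activated array was above the highest quiescent one for each of the 3 Vim probe sets. Their differences were alike, 0.82 ± 0.26 (adjusted p = 0.0329), 0.76 ± 0.23 for 1456292_a_at (adjusted p = 0.0297) and 0.73 ± 0.29 for 1450641_at, which did not pass (adjusted p = 0.0729). Single arrays decided the Vim calls: without activated array 2 the adjusted p was 0.125 and 0.114 for the called probe sets, and without activated array 3 it was 0.128 and 0.123. The call of 1438118_x_at was also lost without quiescent array 1 (adjusted p = 0.0689) and after quantile normalization (adjusted p = 0.0548), and that of 1456292_a_at without activated array 1 (adjusted p = 0.0554). Both were lost without a mean-variance trend (adjusted p = 0.11). Their differences became 1.47 and 1.40 under control scaling, and 1450641_at then passed (1.38, adjusted p = 0.0395).

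Nestin is the type IV protein used as a marker of neural progenitors, and it forms filaments together with vimentin. Nes 1418289_at read 6.11, 9.53 and 7.95 on quiescent arrays and 9.83, 11.14 and 10.06 on activated arrays. The quiescent arrays spread widely, and the highest of them was only just under the lowest activated one. The lowest, quiescent array 1 at 6.11, was barely above its background of 6.10. The difference was 2.48 ± 0.73 (adjusted p = 0.0258). This call was lost without quiescent array 1 (1.60, adjusted p = 0.0595), activated array 2 (adjusted p = 0.103) or activated array 3 (adjusted p = 0.056), and without a mean-variance trend (adjusted p = 0.0568).

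The other Nes probe sets pointed the same way. Nes 1449022_at read 3.43, 5.65 and 8.0 against 8.10, 8.77 and 8.22, and its difference of 2.67 (95% interval 0.54 to 4.80) did not pass (adjusted p = 0.0564). Quiescent array 1 was under its background of 6.10, so that difference has no floor. With that array held at background the activated signal was at least 3.43-fold higher, and with all values raised to background the difference was 1.78 (adjusted p = 0.0425). It also passed without quiescent array 3 (3.82, adjusted p = 0.00376), under control scaling (adjusted p = 0.0354) and in 4 other alternatives. Nes 1453997_a_at read 3.15, 2.92 and 2.86 on quiescent arrays, all under background, and 7.91, 8.70 and 8.57 on activated arrays. Its mean over the 6 arrays was below the filter, so it was not part of the main test. With no filter its adjusted p was 0.000399, and the activated signal was at least 6.61-fold above the quiescent background.

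**Figure D2:**
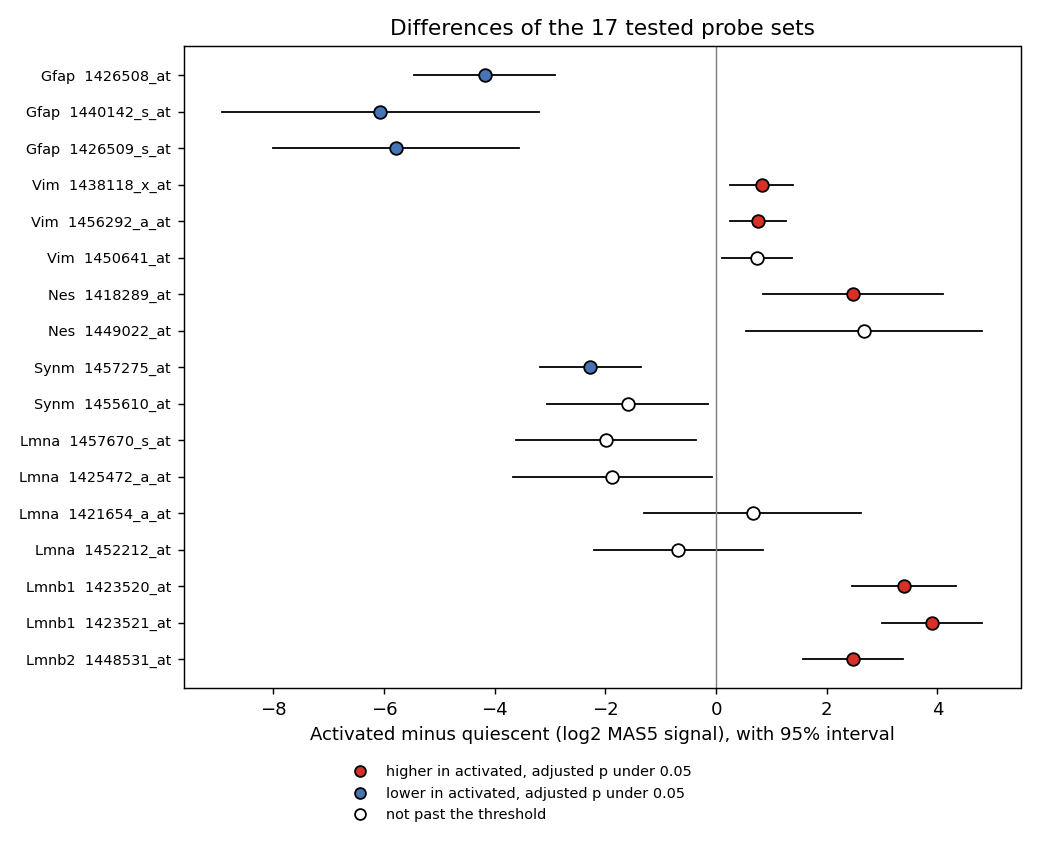
Difference between groups (horizontal axis, activated minus quiescent log2 MAS5 signal) of the 17 tested probe sets, 1 per line, with 95% intervals from limma as horizontal bars. The 3 Gfap probe sets lie farthest to the left, Lmnb1, Lmnb2 and Nes lie to the right, and the 4 open points of Lmna lie on either side of 0.

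The neuronal filament genes gave little signal. Neurofilament light chain, Nefl, read 5.55, 5.92 and 4.37 on quiescent and 2.64, 0.71 and 4.79 on activated arrays for 1426255_at, and its second probe set was at or under background on all 6 arrays. For Nefm, the medium chain, the readings were 2.45, 5.04 and 3.90 against 5.40, 5.64 and 4.89, at background on all quiescent arrays and above it on all activated ones. Mean background was 5.67 on quiescent and 4.60 on activated arrays, and the activated Nefm mean of 5.31 lay under the quiescent one. Passing background on activated arrays alone therefore does not show a rise of Nefm. Ina, internexin, read 5.92, 2.87 and 6.12 against 6.17, 5.19 and 6.17 for its brightest probe set, 1448992_at. The groups overlapped for Nefm, for all 3 Ina probe sets and for Nefl 1426255_at. With no filter none of these 6 probe sets passed (limma, adjusted p from 0.133 to 0.91).

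Marker genes of neurons did not all follow that picture. Of 9 tested neuroblast markers 4 were called higher and 0 lower (median difference 2.51), and of 5 tested mature neuron markers 2 were called higher and 0 lower (median 1.13), against 17% higher and 17.4% lower, 34.3% in all, among the 11575 genes tested by their brightest probe set and a median of 0.01. Groups did not overlap for 50.7% of these genes. The mature neuron count was 0 with the filter at the median signal, 1 with no filter and 4 under control scaling. Both of its calls, Rbfox3 and Syn1, had 2 quiescent arrays at background. Their quiescent means were 4.32 and 4.25, so they passed the filter of 6.02 through the activated arrays. The summed linear signal of the neuroblast list was 1479 to 8923 on quiescent and 21286 to 26745 on activated arrays. Cd24a is 1 of the 4 neuroblast markers called higher. The selection for the GFAP reporter and CD133 and against CD24 is meant to remove neuroblasts and neurons, and the part of such cells in the values of Nefm and Ina was not tested.

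Lamins A and C, encoded by Lmna, are prominent in stiff and differentiated tissue. The 5 Lmna probe sets did not move alike. Lmna 1457670_s_at read 9.35, 9.08 and 10.07 on quiescent and 6.61, 6.43 and 9.47 on activated arrays, so that activated array 3 lay among the quiescent ones. Its difference of -1.99 (95% interval -3.62 to -0.37) did not pass (adjusted p = 0.0604), but it passed without activated array 3 (-2.98, adjusted p = 0.00384) and when values were raised to background (adjusted p = 0.044).

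The same array stood apart for other Lmna probe sets. Lmna 1425472_a_at read 7.76, 7.72 and 7.91 against 6.32, 4.01 and 7.43, a difference of -1.88 (95% interval -3.68 to -0.08, adjusted p = 0.101, activated array 2 at background) that passed without activated array 3 (-2.63, adjusted p = 0.0458). Lmna 1426868_x_at, below the filter, read 7.16, 6.60 and 6.15 against 2.15, 2.42 and 4.82, at least 3.91-fold lower with 2 activated arrays at background, and passed with no filter (adjusted p = 0.0225). Activated array 3 was the highest of its group for these 3 probe sets, as it was for Gfap. The remaining probe sets overlapped between groups. Lmna 1421654_a_at read 4.04, 6.35 and 7.64 against 6.53, 6.28 and 7.22, and 1452212_at read 6.07, 7.48 and 5.98 against 6.30, 5.74 and 5.44. Their differences were 0.66 (95% interval -1.30 to 2.63) and -0.68 (95% interval -2.21 to 0.84). Both turned sign under other settings, the former to -0.32 without quiescent array 1 and the latter to 0.09 after quantile normalization.

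Lamin B1, a constant part of the lamina that stays anchored in the membrane by its lipid tail, gave the highest increases of the family among tested probe sets. Lmnb1 1423520_at read 8.42, 8.49 and 7.01 on quiescent and 11.22, 11.50 and 11.41 on activated arrays. For 1423521_at the readings were 6.94, 8.27 and 7.12 against 11.11, 11.43 and 11.51. Activated arrays lay within a narrow range more than 2 log2 units above any quiescent array. The differences were 3.40 ± 0.42 (adjusted p = 0.000272) and 3.90 ± 0.41 (adjusted p = 0.000119), that is 10.5-fold and 15.0-fold.

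Lamin B2 rose with a smaller difference. Lmnb2 1448531_at read 7.11, 7.02 and 7.41 on quiescent and 9.31, 10.07 and 9.58 on activated arrays, 2.47 ± 0.41 higher (adjusted p = 0.00134), or 5.55-fold. The second probe set, 1451849_a_at, was below the filter and read 3.23, 7.32 and 3.35 against 7.23, 7.36 and 6.92. Quiescent arrays 1 and 3 were at background there, while quiescent array 2 reached the level of the activated arrays. With no filter it did not pass (adjusted p = 0.108). The calls of Lmnb1 and of Lmnb2 1448531_at held under every alternative in which they were tested.

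Ratios within an array do not depend on how the array was scaled, and their changes were used to ask whether members changed unequally. The ratio of Vim to Gfap, each by its brightest probe set, was 2.19, 1.63 and 1.30 on the log2 scale on quiescent and 6.91, 7.58 and 5.65 on activated arrays, a change of 5.01. That of Nes to Gfap changed by 6.66 and that of Synm to Gfap by 1.91, the latter from -0.24, -0.52 and -0.89 to 2.38, 1.65 and 0.05. Lmnb1 relative to Lmna changed by 5.39, from -0.93, -0.58 and -3.06 to 4.60, 5.06 and 1.94, and Lmnb2 relative to Lmna by 4.46. In these 5 ratios the groups did not overlap, and each gave a two-sided exact permutation p of 0.1, the smallest possible, or 0.14 adjusted over the 7 ratios computed. Nes to Vim (1.66) and Lmnb1 to Lmnb2 (0.93) overlapped between groups and gave an exact p of 0.2. With 3 arrays a group no ratio could reach 0.05, so these tests set no ratio apart. No ratio changed sign under any alternative run for it.

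**Figure D3:**
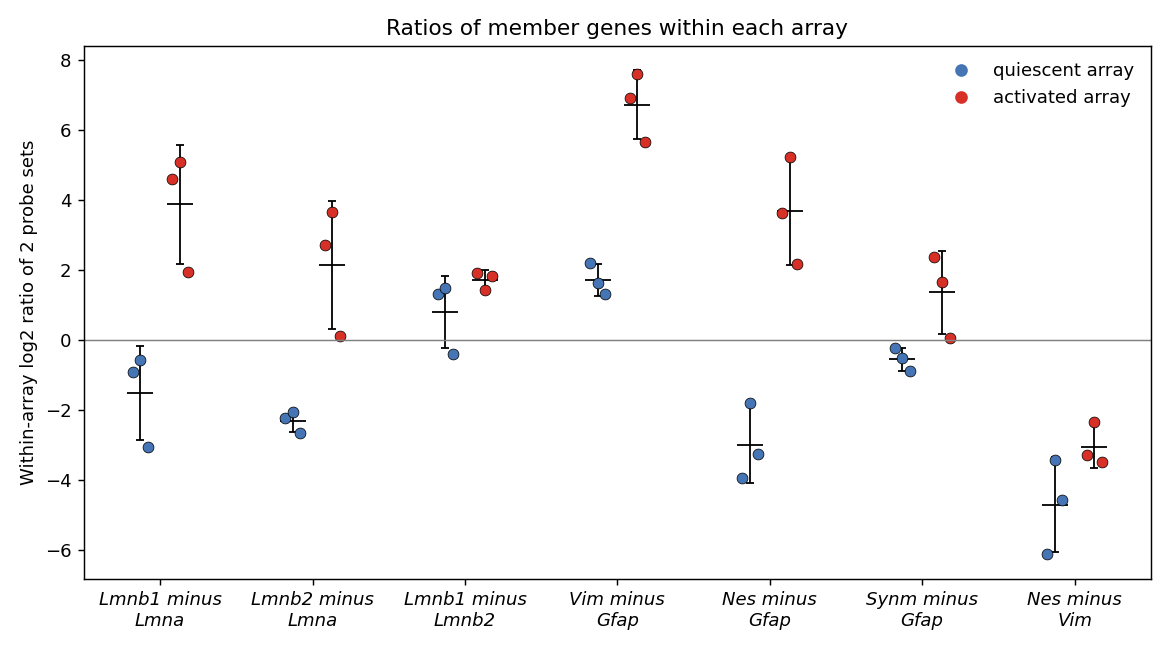
Within-array log2 ratios of pairs of member genes (vertical axis), each gene by its brightest probe set, for 3 quiescent (blue) and 3 activated (red) arrays, with means and SD. The level of a ratio depends on the probes and only its change between groups can be read: red points lie above blue ones for the ratios to Lmna and to Gfap and overlap for Lmnb1 to Lmnb2 and Nes to Vim.

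Partners of the lamina were examined next, from a list of 21 genes of the inner nuclear membrane and of the LINC complex that links the nucleus to the cytoskeleton. Of 20 tested genes 8 were called higher and 1 lower, against 17% higher and 17.4% lower among all tested genes. The median difference was 0.24, against 0.01 over all tested genes. Not all higher calls were firm: that of Tor1aip2 (limma, adjusted p = 0.0485) was lost in 11 of 18 alternatives and that of Cbx5 in 2 of 19. Nrm, which encodes the inner membrane protein nurim, was at least 34.1-fold higher (adjusted p = 8.40e-05), with 2 quiescent arrays at background. That bound is of 1 probe set, and with the mean of the gene's probe sets the difference was 2.45 on the log2 scale against 5.33 (adjusted p = 0.00948). Banf1, the barrier-to-autointegration factor that ties chromatin to the lamina, was 3.00 ± 0.38 higher (adjusted p = 0.000312).

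The giant nesprins that span the nuclear envelope moved apart. Syne2 was 3.01 ± 0.48 higher (adjusted p = 0.00106), reading 7.25, 7.07 and 8.72 on quiescent and 10.30, 11.09 and 10.68 on activated arrays. With the mean of its probe sets the Syne2 difference was 1.59 (adjusted p = 0.00372). Syne1 fell by 4.29 ± 0.54 (adjusted p = 0.000283), from 10.86, 9.99 and 11.23 to 6.65, 7.16 and 5.40. Tmpo, which encodes the lamina-associated LAP2 proteins, was 2.49 ± 0.34 higher (adjusted p = 0.000439), and Lbr, the B-type lamin receptor, 2.02 ± 0.33 higher (adjusted p = 0.00132). These last 2 genes were picked out after their values were seen. The SUN proteins that hold the nesprins, Sun1 and Sun2, differed by -0.25 (adjusted p = 0.547) and -0.79 (adjusted p = 0.0726).

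Enzymes that finish the lamins were called in both directions. Of 8 genes for isoprenoid supply, farnesylation and tail cleavage, 1 was called higher and 2 lower, near the 34.3% called among all tested genes, with a median of -0.24. The subunits of farnesyltransferase went opposite ways, Fntb being 1.79 ± 0.52 higher (adjusted p = 0.024) while Fnta fell by 1.54 ± 0.35 (adjusted p = 0.00748). Icmt, which methylates the farnesylated tail, fell by 1.30 ± 0.44 (adjusted p = 0.044). Both lower calls were lost under control scaling (adjusted p = 0.0842 and 0.305). The call of Icmt, lost in 9 of 19 alternatives, was lost also without quiescent array 1 (adjusted p = 0.133) or any activated array (adjusted p from 0.0867 to 0.112). The call of Fntb was lost without activated array 3 (adjusted p = 0.0977), activated array 1 (0.082), quiescent array 2 (0.0675) or quiescent array 1 (0.0643).

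Among kinases that phosphorylate filaments and lamins and their partners, 5 of 10 tested genes were called higher and 1 lower (median 1.63). The shares over all tested genes were 17% higher and 17.4% lower, with a median of 0.01. Aurkb, which acts on vimentin at the cleavage furrow, had at least a 23.8-fold higher signal (adjusted p = 0.00233), and Plk1, a mitotic kinase, at least 18.6-fold (adjusted p = 0.00058). Cdk1 was 4.24 ± 0.35 higher (adjusted p = 4.78e-05). Prkca fell by 1.89 ± 0.54 (adjusted p = 0.0227), a call that did not hold after quantile normalization (adjusted p = 0.0542), under control scaling (adjusted p = 0.169) or without quiescent array 3 (0.064), activated array 1 (0.076) or activated array 3 (0.0676). All 10 proliferation markers, such as Mki67 and Top2a, were called higher (median 4.47), their summed linear signal being 5006 to 13718 on quiescent and 65699 to 71968 on activated arrays. Of these Bub1, with a quiescent mean of 4.24, also passed the filter through the activated arrays. Lmnb1, Lmnb2 and the 8 lamina partners called higher rose on the same arrays as the proliferation markers. The part of cell division in their differences was not tested.

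Linkers and chaperones of the cytoplasmic filaments were lower where called. Over all tested genes 17.4% were called lower and 17% higher, with a median of 0.01. Of 14 listed linkers 7 were tested, and 4 were called lower and 0 higher (median -1.48). Jup, plakoglobin of cell junctions, fell by 2.73 ± 0.52 (adjusted p = 0.00288). Itga6, the laminin-binding integrin subunit of hemidesmosomes, fell by 2.45 ± 0.43 (adjusted p = 0.0018), and the plakin Dst fell by 2.35 ± 0.34 (adjusted p = 0.000673). Plec, the plakin plectin, differed by 0.12 ± 0.74 (adjusted p = 0.919). Of 6 tested chaperone and turnover genes 4 were called lower and 0 higher (median -1.57). Cryab, the small heat shock protein that binds GFAP and vimentin filaments, read 11.35, 10.64 and 13.41 on quiescent and 6.31, 8.21 and 6.92 on activated arrays and fell by 4.65 ± 0.69 (adjusted p = 0.000696). With the mean of its probe sets Cryab fell by 3.19 (adjusted p = 0.00656). Hspb1 fell by 2.17 ± 0.61 (adjusted p = 0.0214), and the co-chaperone Bag3 fell by 2.02 ± 0.61 (adjusted p = 0.0272). Both calls were lost under control scaling (adjusted p = 0.14 and 0.168), which left 1 lower call in the list, after quantile normalization (adjusted p = 0.0769 and 0.0648) and without activated array 2 (adjusted p = 0.0638 and 0.0923). The Hspb1 call was also lost when its probe sets were averaged (-1.18, adjusted p = 0.135), without quiescent array 2 (adjusted p = 0.0889) or activated array 1 (0.0678), and the Bag3 call without quiescent array 3 (adjusted p = 0.0851) or activated array 3 (0.0605).

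Other cytoplasmic filament genes were mostly near background. Of 27 listed genes, among them keratins, desmin, peripherin and neurofilament heavy chain, only 5 were bright enough to be tested, and Krt10 alone was called, 0.96 ± 0.32 lower (adjusted p = 0.0396). Lower calls made up 17.4% and higher calls 17% of all tested genes. With no filter 5 genes of the list were called lower and Krt10 was not among them (adjusted p = 0.0506). Its call did not hold under control scaling (adjusted p = 0.622), without a mean-variance trend (adjusted p = 0.0758) or without quiescent array 1, quiescent array 2, activated array 1 or activated array 2 (adjusted p from 0.0771 to 0.153). All activated arrays were at background for 13 of the 27 genes and all quiescent arrays for 7. Neither Krt8 nor Krt18, the simple epithelial keratins, was above background on any activated array. Of the quiescent arrays 2 were at background for Krt8 and 1 for Krt18. Their activated signals were at least 1.49-fold and 2.93-fold lower, and both genes were below the filter.

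**Figure D4:**
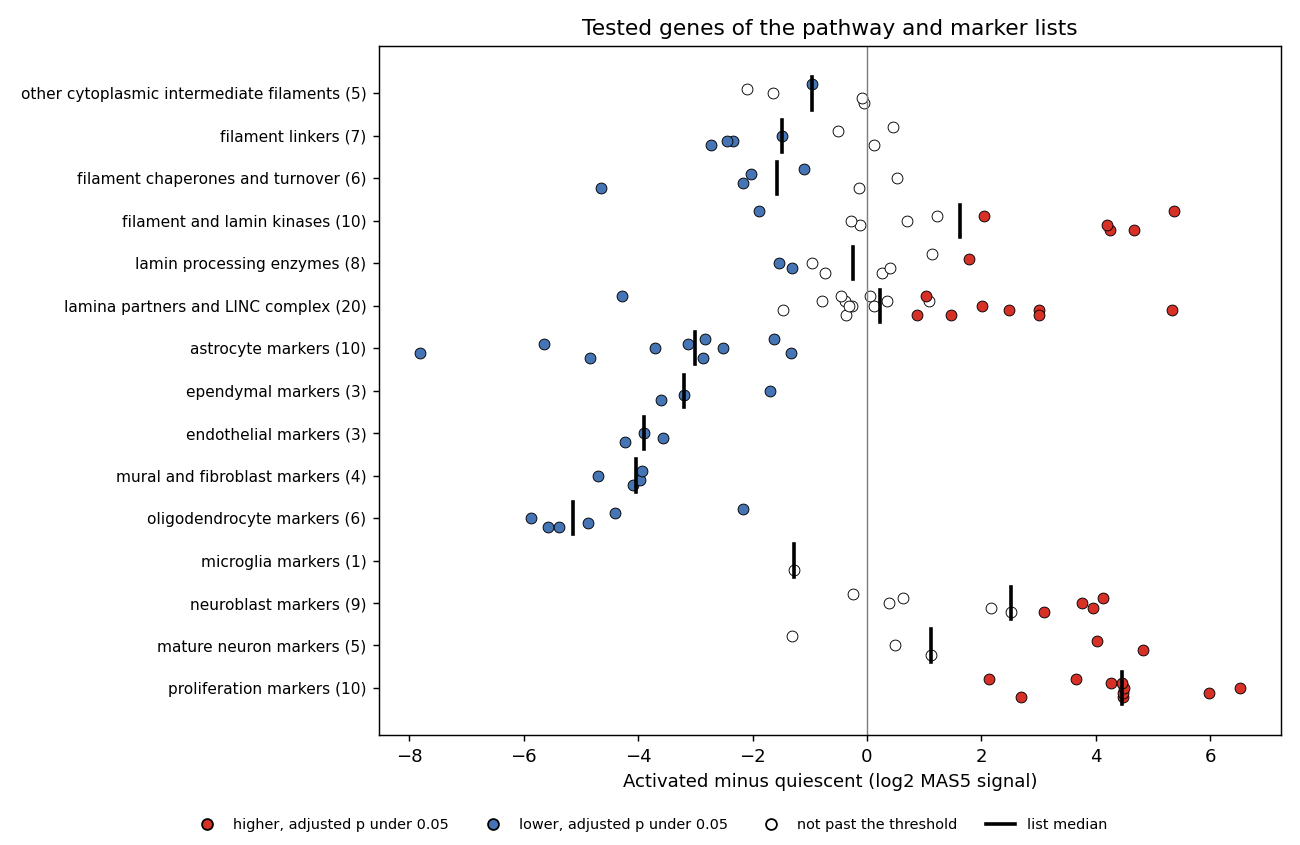
Difference between groups (horizontal axis, activated minus quiescent log2 MAS5 signal) of the tested genes of each pathway or marker list, 1 point per gene by its brightest probe set, with the list median as a bar and the number of tested genes in brackets. Lamina partners, kinases and proliferation markers hold most of the higher calls, and linkers, chaperones and the astrocyte, oligodendrocyte, vascular and ependymal markers hold most of the lower ones.

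Astrocyte, oligodendrocyte, endothelial, mural, fibroblast and ependymal markers fell where tested, as Gfap and Synm did. The neuroblast and mature neuron markers given above did not. All 10 astrocyte markers, a list without Gfap, were called lower (median -3.00), their summed linear signal going from 129948 to 198985 on quiescent to 25558 to 31768 on activated arrays, and S100b was at background on all activated arrays. All 6 tested oligodendrocyte markers were lower (median -5.14; summed signal 15034 to 57490 against 2039 to 5204), as were 3 of 3 endothelial (median -3.90; 1183 to 3877 against 115 to 207), 4 of 4 mural and fibroblast (median -4.04; 5791 to 8520 against 256 to 642) and 3 of 3 ependymal markers (median -3.20; 1662 to 1916 against 248 to 368). The test covered 3 of 9 matched endothelial, 4 of 9 mural and fibroblast and 3 of 9 ependymal markers. The filter used the mean over the 6 arrays, so a marker dim on activated arrays was tested only if bright on quiescent ones. That rule favoured falls among the tested markers. With no filter 8 endothelial, 4 mural and fibroblast and 5 ependymal markers were called lower and 0 higher. Of all tested genes 17.4% were called lower. On activated arrays 5 of 9 endothelial markers were at background throughout, Pecam1, Kdr, Tek, Tie1 and Emcn, and of the mural and fibroblast list Kcnj8, Abcc9, Lum and Dcn were, Lum on quiescent arrays too. On quiescent arrays no endothelial marker was at background on every array. Microglial Aif1, C1qa and Tmem119 were at background on all 6 arrays. The other microglial markers, Cx3cr1, P2ry12 and Csf1r, were above background on all quiescent arrays. Cx3cr1 was at least 3.09-fold and P2ry12 at least 5.71-fold lower on activated arrays, both below the filter, and Csf1r differed by -1.28 (adjusted p = 0.148). With no filter 2 microglial markers were called lower. The selection for the GFAP reporter and CD133 and against CD24 is meant to remove these other cell types. The part of these cell types in the differences of Gfap, Synm, Lmna, Cryab and Vim was not tested.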

How the data were processed

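RNA of 3 quiescent and 3 activated samples was amplified with a NuGEN Pico kit and hybridised to single-colour arrays, per the labels' protocols. The deposited values are log2 signals from MAS5, a tool named in the submitters' processing notes. Its version, the detection calls and the scanner set-up are not given in the sources used. The linear trimmed mean of the values is 500.0 on every array, so differences in total RNA per cell are removed, and the number of arrays limits the precision. Of 45101 probe sets, 64 controls, 932 annotated to several genes and 9160 to none were left out. Symbols were updated by Entrez identifier (99.4% found).

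Probe sets with a mean of at least the 40th percentile were fitted in limma 3.58.1 (R 4.3.3) by lmFit, then eBayes allowing the variance to follow the mean, and p-values were adjusted over 22607 probe sets. List genes are counted by their brightest probe set. A fold is given as a lower bound, with arrays raised to background, where the dimmer group had an array there. Within-array ratios were tested by exact permutation of the arrays. Of 9 ratios planned, 7 were computed, since Nefm, Nefl and Ina were below the filter. The fit was tested on simulated data with 3 against 3 arrays and 200 changed probe sets. It recovered 0% of changes of 1 log2 unit, 23.9% of 2 and 68.2% of 4, and 3.17% of its calls were false. In the data 7212 probe sets were called, so these shares do not carry over directly. A probe set that did not pass may still differ.

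Named genes are all probe sets of the 10 members and, per list, at most 3 called genes in the direction with more calls and 2 in the opposite one, taken by size. Where further genes were named with their values, among them Plec, Sun1, Sun2, Krt8, Krt18 and the cell type markers, they were picked after their values were seen. Members and lists were chosen with earlier results of these data known. Alternatives were other filters, probe set rules, pseudocounts of 16 and 64, scalings, variance models, values raised to background, the replicate number as a block and each array left out.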

Additional observations from a re-analysis of the deposited data

How the results depend on the processing

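Of 295 values of the 17 tested member probe sets under the alternatives, 267 kept their side of the threshold, 14 lost the call, 14 gained it and 0 called values turned sign. Of the 10 called probe sets, 7 kept the call under every alternative run for them: those of Gfap, Lmnb1, the brightest of Lmnb2 and the brightest of Synm. Members called higher numbered 3 without a mean-variance trend and ranged from 3 to 8 when each array was left out, 3 without activated array 2 or activated array 3 and 8 without quiescent array 3. Members called lower numbered 2 with the brightest probe set of a gene, 2 with the mean of a gene's probe sets and 2 without cross-hybridising probe sets, each of which tests fewer probe sets, and ranged from 4 to 6 when each array was left out, with 6 without activated array 3. Over all probe sets, 2004 were higher and 2040 lower with the brightest per gene, 1921 and 2177 with the mean per gene, and 1584 lower (5203 higher) after scaling to the hybridisation controls, against 3523 and 3689. Leaving out each array gave 2247 to 4449 higher and 2673 to 3893 lower. With the replicate number as a block 6 member probe sets were higher and 5 lower, over all 3474 and 3528, and not every array correlated best with its own number. Same-numbered arrays correlated at 0.05, -0.05 and 0.02 in their deviations from the group means, so they share only a number. Under the block Vim 1456292_a_at lost its call (adjusted p = 0.0552), Nes 1449022_at (0.0356) and Lmna 1457670_s_at (0.0188) gained one, and Krt10 (0.0614), Icmt (0.0513) and Tor1aip2 (0.068) lost theirs. Lmna 1457670_s_at also passed with 64 added to the linear signal (0.0497). For the ratios that block kept each change, and a sign-flip test on 3 pairs cannot go below 0.25. Leaving out each array moved Lmnb1 to Lmna between 4.62 and 6.36, Lmnb2 to Lmna between 3.72 and 5.49, Lmnb1 to Lmnb2 between 0.33 and 1.27, Vim to Gfap between 4.57 and 5.54, Nes to Gfap between 5.88 and 7.42, Synm to Gfap between 1.40 and 2.56 and Nes to Vim between 0.95 and 2.30. With the mean of a gene's probe sets Vim to Gfap was 6.12, Nes to Gfap 8.87, Synm to Gfap 3.41 and Nes to Vim 2.75, above those ranges. Signals near background limit Nefl, Nefm, Ina and the dim probe sets of Nes, Lmna and Lmnb2.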
